A study of Homo sapiens with 4 samples.

Results

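A set of 58 cell cycle and DNA replication genes was followed, taken from a table of gene counts as the rows whose symbol equals a listed name. All 58 were found among 25690 rows, 17 of them G1 regulators and inhibitors, 10 of replication licensing, 5 of S phase and 26 of mitosis. A low-count filter left 57 of them and 15643 genes in all. The gene that did not pass was CDKN2A, which encodes a CDK4 and CDK6 inhibitor, with 0 and 1.5 estimated counts in the libraries labelled knockout and 3 and 2 in the WT libraries.

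Progression through the cell cycle is driven by cyclins bound to cyclin-dependent kinases (CDKs). In G1, D cyclins with CDK4 or CDK6 and E cyclins with CDK2 phosphorylate the retinoblastoma protein RB1, which frees E2F transcription factors to activate genes for DNA synthesis, while CDK inhibitors restrain these kinases. Origins of replication are licensed by loading of the MCM2 to MCM7 helicase, S phase genes supply the clamp and nucleotides that copy DNA, and cyclin B with CDK1, the Aurora and Polo kinases, kinesins and kinetochore proteins carry cells through mitosis. Human embryonic stem cells are known for a short G1 phase, which lengthens as they differentiate.

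The libraries came from H9, an established human embryonic stem cell line, at day 7, in a study of non-neural ectoderm, the embryonic layer that gives rise to surface epidermis. There were 2 libraries with the genotype label TFAP2A knockout, called KO here, and 2 with the label WT. TFAP2A is a transcription factor of early surface ectoderm, and the question of the comparison was how its loss changes gene expression. The labels name no differentiation protocol or guide, and they do not say whether the KO libraries come from 1 clone or several. The sample titles of the KO libraries name TFAP2C, a relative of TFAP2A, while the genotype label and the study's design text name TFAP2A. TFAP2A was at 133 and 121 CPM in the libraries labelled KO, against 171 and 198 CPM in the WT libraries (log2 fold change -0.54, SE 0.07, adjusted p = 0.000125). TFAP2C was at 8.91 and 5.77 CPM in the libraries labelled KO, against 27.5 and 30.6 CPM in the WT libraries (log2 fold change -1.99, SE 0.17, adjusted p = 6.66e-06). Neither transcript was absent, and since the edited position is not given, their levels check neither label.

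Levels are in CPM, a library's counts scaled to a common effective total. Adjusted p-values come from the quasi-likelihood test of edgeR, with Benjamini-Hochberg correction over all 15643 genes, and a gene is said to have risen or fallen only at an adjusted p under 0.05. The standard error (SE) is the absolute log2 fold change divided by the square root of that test's F value. It therefore draws on spread shared across genes, not on the libraries of that gene alone. Total counts were 19305868 and 21797850 in the libraries labelled KO and 17945210 and 17838204 in the WT libraries, so that a count of 0 allows a level of up to 0.138 to 0.168 CPM (3 counts). Nothing in the labels says that libraries of 1 genotype came from separate cultures, and the p-values then measure only the spread between these libraries. In bulk RNA, more cells in a phase and more RNA per cell cannot be told apart.

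Markers of the labelled cells were present. Counts of markers that rose or fell stand against 21.9% risen and 22.3% fallen among all genes tested. The summed level of 9 non-neural ectoderm markers was 2379 and 2308 CPM in the libraries labelled KO, against 3101 and 3378 CPM in the WT libraries, and 6 of the 9 fell. Of 6 neural ectoderm markers 4 passed the filter and all 4 rose, with sums of 325 and 286 CPM in the libraries labelled KO, against 124 and 126 CPM in the WT libraries. Most of that sum was CDH2, at 265 and 248 CPM in the libraries labelled KO, against 110 and 112 CPM in the WT libraries. PAX6 was at 7.27 and 5.77 CPM and SOX1 at 1.28 and 0.687 CPM in the libraries labelled KO, against 2.29 and 2.67 CPM and 0.0559 and 0.0567 CPM in the WT libraries. The rise of SOX2, a marker of neural and pluripotent cells alike, was lost in 4 of 15 alternatives (adjusted p 3.95e-08 to 0.248), without WT replicate 1 or 2 among them, and the fall of GATA3 was lost without KO replicate 2 (adjusted p 1.02e-06 to 0.0563). OTX2 and ZIC1 stayed below 0.4 CPM in every library. Of the pluripotent cell markers 4 were tested, of which SOX2 rose and LIN28A fell. These 4 summed to 528 and 443 CPM in the libraries labelled KO, against 624 and 681 CPM in the WT libraries. Most of that sum was LIN28A, at 397 and 343 CPM in the libraries labelled KO, against 539 and 591 CPM in the WT libraries. DPPA4 was at 68.0 to 78.1 CPM and POU5F1 at 0.567 to 0.895 CPM. TDGF1 was at 0.391 CPM or less and NANOG at 0.0567 CPM or less. Of 6 mesenchyme markers 4 fell, VIM rose and COL1A1 did not pass, and their sum, most of it COL1A1 and COL3A1, was 8535 and 9871 CPM in the libraries labelled KO, against 10381 and 10735 CPM in the WT libraries. POSTN was at 13.5 and 15.6 CPM and PRRX1 at 6.66 and 7.06 CPM in the libraries labelled KO, against 82.4 and 77.5 CPM and 43.6 and 37.1 CPM in the WT libraries. VIM was at 1023 and 1046 CPM in the libraries labelled KO, against 764 and 787 CPM in the WT libraries (log2 fold change 0.42, adjusted p = 1.10e-05). The fall of COL3A1 was lost with DESeq2 and without KO replicate 1 or WT replicate 2 (adjusted p 0.000257 to 0.0671), and COL1A1 passed without KO replicate 2 (adjusted p 0.0227 to 0.91). Of 5 endothelial and blood markers tested 4 fell, and all 6 summed to 19.9 and 19.1 CPM in the libraries labelled KO, against 60.3 and 59.8 CPM in the WT libraries, with PECAM1 at 0 in all 4. The part of these marker differences in the values that follow was not tested.

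Most of the cell cycle genes were modestly higher in the KO libraries. Of the 57 tested, 38 (66.7%) rose and 2 fell, CCNE1 and CDKN1A, while 21.9% of all genes tested rose and 22.3% fell. The median log2 fold change of the 57 was 0.26, against 0.00 over all genes tested, and 49 of them had a positive value. Both KO libraries lay above both WT libraries for 44 genes, below for 5, and overlapped with them for 8, while over all genes tested 36.5% lay above and 36.5% below. The differences were small. A change of at least 2-fold upward was reached by 3 genes, CCND1, CENPF and NEK2 (4.49% of all genes tested), and no member fell that far (6.77% of all genes tested). The median gene of the set stood 0.25 and 0.25 log2 units above the WT mean in the libraries labelled KO, and 0.03 above and -0.03 from it in the WT libraries.

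**Figure D1:**
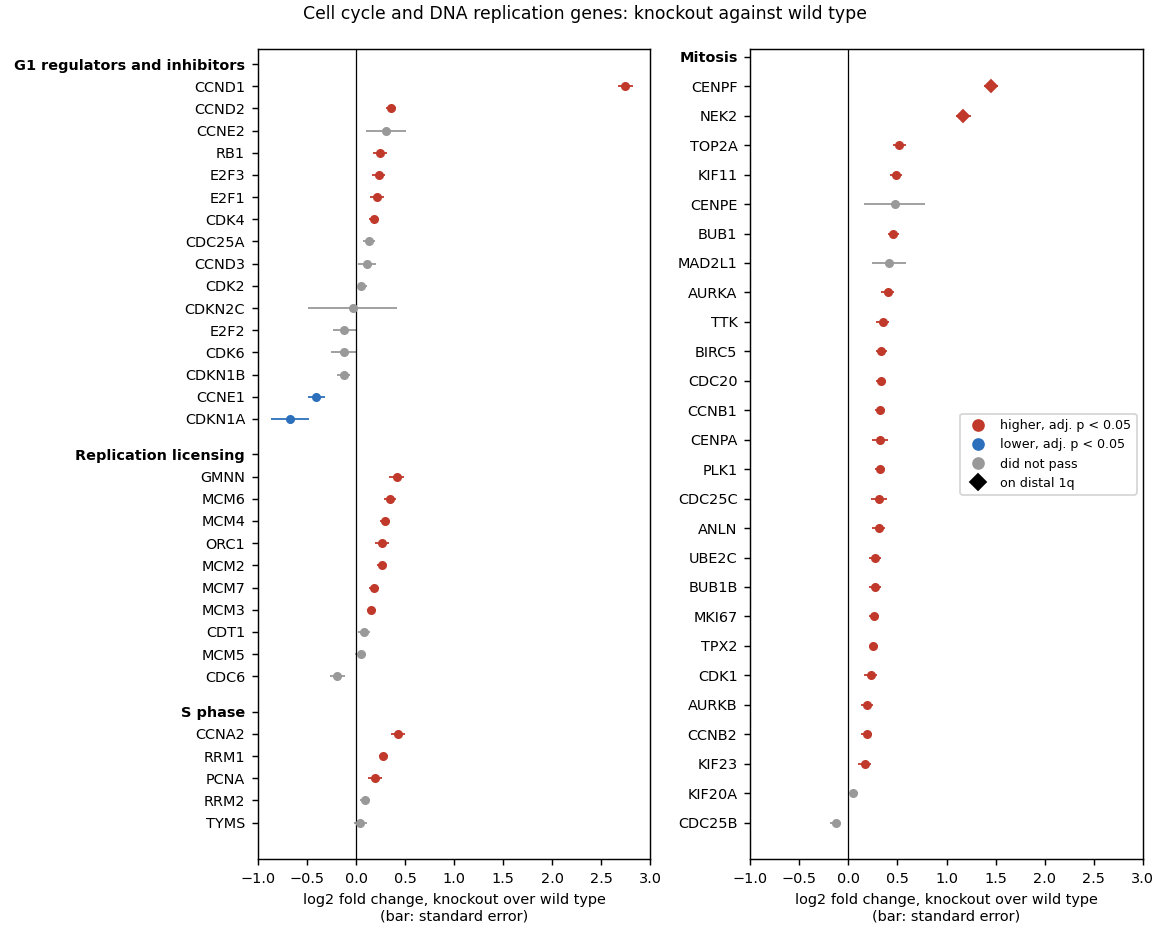
Log2 fold change of each of the 57 tested genes, KO over WT, with its standard error, grouped by phase. Red points rose and blue points fell at an adjusted p under 0.05, grey points did not pass, and diamonds lie on distal chromosome 1q. The mitotic genes stand almost all to the right of 0, while the G1 genes run from CDKN1A at -0.67 to CCND1 at 2.74.

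The G1 genes moved in both directions. Of the 16 tested, 6 rose (37.5%), 2 fell (12.5%) and 8 did not pass, against 21.9% risen and 22.3% fallen among all genes tested. Their median log2 fold change was 0.12. Without KO replicate 1 or without WT replicate 2 only 3 rose, and without KO replicate 2 the median was 0.070. CCND1 (cyclin D1, chr11:69455873-69469242, hg19), a D cyclin that couples growth signals to CDK4 and CDK6, changed most. It was at 104 and 105 CPM in the libraries labelled KO, against 15.3 and 15.8 CPM in the WT libraries, a 6.70-fold difference (log2 fold change 2.74, SE 0.07, adjusted p = 1.73e-12). The KO libraries lay close together and far above the WT libraries. By size of rise it ranked 105 of the 15643 genes tested, and 2 of the 11950 with a WT mean of at least 5 CPM. That cut uses the WT libraries alone, and almost all of the larger rises lay in genes below it. The 178 tested genes that start within 5 Mb of CCND1 had a median log2 fold change of -0.08.

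CCND2 (cyclin D2) was at 469 and 496 CPM in the libraries labelled KO, against 379 and 376 CPM in the WT libraries (log2 fold change 0.36, SE 0.05, adjusted p = 5.09e-05). CCND3 (cyclin D3) was at 29.2 and 34.0 CPM in the libraries labelled KO, against 28.5 and 30.1 CPM in the WT libraries, groups that overlap (adjusted p = 0.34). Levels of different genes can be compared only per length. In CPM per kb of the longest transcript in a GRCh38 annotation, the 3 D cyclins summed to 109 and 115 in the libraries labelled KO, against 73.9 and 74.2 in the WT libraries. CCND1 made up 22.2% and 21.2% of that sum in the libraries labelled KO, against 4.81% and 4.95% in the WT libraries. CCND2 stayed the most abundant per length, with 66.6% and 66.5% in the libraries labelled KO and 79.1% and 78.1% in the WT libraries. CCND3 held 11.2% and 12.3% in the libraries labelled KO and 16.1% and 16.9% in the WT libraries. Per length, CCND1 stood above CCND3 in both KO libraries and below it in both WT libraries.

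Among the kinases, CDK4 was at 287 and 302 CPM in the libraries labelled KO, against 265 and 254 CPM in the WT libraries (log2 fold change 0.18, SE 0.05, adjusted p = 0.00949). CDK6 (193 and 163 CPM in the libraries labelled KO, against 176 and 212 CPM in the WT libraries) and CDK2, the partner of E cyclins, overlapped between genotypes and did not pass. CDC25A, a phosphatase that removes inhibitory phosphates from CDKs, did not pass either (log2 fold change 0.14, adjusted p = 0.0869). CCNE1 (cyclin E1) ran against the set. It was at 26.9 and 24.4 CPM in the libraries labelled KO, against 35.7 and 32.2 CPM in the WT libraries (log2 fold change -0.40, SE 0.09, adjusted p = 0.00194), with both KO libraries below both WT libraries. CCNE2 (cyclin E2) was low, at 4.10 and 5.13 CPM in the libraries labelled KO, against 3.47 and 4.03 CPM in the WT libraries, and did not pass (adjusted p = 0.237). The rise of CDK4 was lost without KO replicate 2 (adjusted p = 0.0619) and without WT replicate 2 (adjusted p = 0.0958), with a range of 0.00436 to 0.0958 over 15 alternatives.

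Of the CDK inhibitors, CDKN1A (p21), which inhibits cyclin E with CDK2, was at 3.07 and 3.12 CPM in the libraries labelled KO, against 5.31 and 4.54 CPM in the WT libraries (log2 fold change -0.67, SE 0.19, adjusted p = 0.012). It was low in all 4 libraries and lowest in the KO libraries, and its call was lost with DESeq2 (adjusted p = 0.110) and without WT replicate 1 (adjusted p = 0.103), with a range of 0.00652 to 0.11 over 15 alternatives. CDKN1B (p27), which binds cyclin E with CDK2, was at 65.6 and 60.9 CPM in the libraries labelled KO, against 71.5 and 66.5 CPM in the WT libraries, and did not pass (adjusted p = 0.148). CDKN2C (p18), an inhibitor of CDK4 and CDK6, was below 1 CPM in every library, at 0.615 and 0.596 CPM in the libraries labelled KO and 0.447 and 0.794 CPM in the WT libraries.

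RB1 and 2 of the 3 E2F genes rose slightly. RB1 was at 42.8 and 40.1 CPM in the libraries labelled KO, against 35.4 and 34.8 CPM in the WT libraries (log2 fold change 0.24, adjusted p = 0.0142). E2F1, an activating E2F, was at 47.2 and 48.2 CPM in the libraries labelled KO, against 43.4 and 38.9 CPM in the WT libraries (log2 fold change 0.21, adjusted p = 0.0299). E2F3 was at 74.8 and 70.7 CPM in the libraries labelled KO, against 62.2 and 61.7 CPM in the WT libraries (log2 fold change 0.23, adjusted p = 0.00875), and the genes within 5 Mb of it had a median of 0.24. E2F2 overlapped between genotypes. The 3 calls depended on single libraries or settings, while that of CCND1 held in all 15 alternatives. RB1 lost its call in 6 of 15 alternatives (adjusted p 0.00891 to 0.692), without KO replicate 1, WT replicate 1 or WT replicate 2 among them. E2F1 lost it in 5 (adjusted p 0.00787 to 0.281), without either KO replicate or WT replicate 2 among them, and E2F3 in 1, without KO replicate 1 (adjusted p = 0.0619, range 0.00411 to 0.0619).

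**Figure D2:**
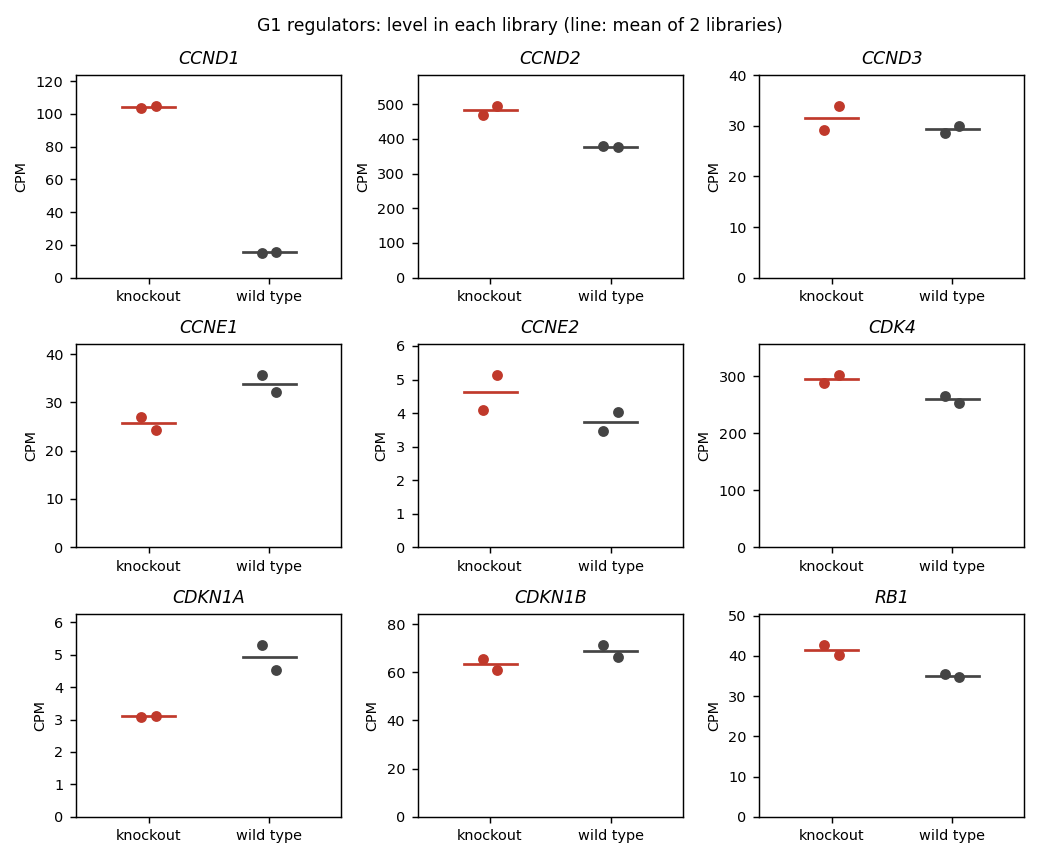
Level in CPM of 9 G1 genes in each library, on axes that start at 0, KO libraries (knockout) left of WT libraries (wild type), with a line at the mean of the 2 libraries. CCND1 stands near 104 CPM in both KO libraries and near 15.6 CPM in both WT libraries, while CCNE1 and CDKN1A are lower in both KO libraries.

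Of 10 licensing genes 7 rose (70.0%), none fell and 3 did not pass, against 21.9% risen and 22.3% fallen among all genes tested. Their median log2 fold change was 0.22 and the largest rise 1.33-fold. Without WT replicate 2 only 4 rose. The count of 0 for falls was the same with DESeq2 and limma-voom, and at an unadjusted p under 0.05 edgeR gave 1, CDC6. Of the 6 helicase subunits MCM2 to MCM7, 5 rose and MCM5 did not pass. MCM6 was at 165 and 154 CPM in the libraries labelled KO, against 131 and 119.9 CPM in the WT libraries (log2 fold change 0.34, SE 0.06, adjusted p = 0.000319). MCM4 was at 302 and 279 CPM in the libraries labelled KO, against 239.6 and 234 CPM in the WT libraries (log2 fold change 0.30, SE 0.05, adjusted p = 0.000405), and the 9 tested genes within 5 Mb had a median log2 fold change of 0.30. MCM2 was at 347 and 352 CPM in the libraries labelled KO, against 299.4 and 284 CPM in the WT libraries (log2 fold change 0.26, SE 0.05, adjusted p = 0.000684). In these 3 subunits the genotypes did not overlap. MCM7, the subunit with the most counts here, was at 453 and 462 CPM in the libraries labelled KO, against 418 and 389 CPM in the WT libraries (log2 fold change 0.18, adjusted p = 0.0112), which did not pass once WT replicate 2 was left out (adjusted p = 0.146, range 0.00279 to 0.146). MCM3 rose by 0.16 on the log2 scale (adjusted p = 0.0178), lost without either WT replicate (range 0.0101 to 0.148).

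The loaders and the inhibitor of loading differed among themselves. ORC1, a subunit of the origin recognition complex, was at 44.8 and 43.6 CPM in the libraries labelled KO, against 38.1 and 35.3 CPM in the WT libraries (log2 fold change 0.27, adjusted p = 0.00789), which did not pass with DESeq2 or once WT replicate 2 was left out (adjusted p 0.00306 to 0.104 over 15 alternatives). CDC6, which loads the helicase together with CDT1, was at 41.9 and 36.7 CPM in the libraries labelled KO, against 45.4 and 44.2 CPM in the WT libraries. Both its KO libraries lay below both WT libraries, and it did not pass (log2 fold change -0.19, adjusted p = 0.0624), although it did in 4 of 15 alternatives, without KO replicate 1 among them (range 0.0172 to 0.408). CDT1 did not pass (log2 fold change 0.08, adjusted p = 0.325). GMNN (geminin), which binds CDT1 and blocks relicensing, had the largest rise of the list. It was at 36.3 and 39.0 CPM in the libraries labelled KO, against 28.6 and 27.8 CPM in the WT libraries (log2 fold change 0.42, SE 0.08, adjusted p = 0.000632), and the 94 tested genes within 5 Mb of it had a median of 0.26.

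Promoters of licensing genes are known for E2F sites. RefSeq promoter windows of 300 bases, 250 before to 50 after a gene's start, were found for 47 of the 58 genes, in 67 windows. The E2F-type motif TTTNNCGC, read on both strands, was in 7 of 11 licensing windows (63.6%), against 6.89% of 35116 windows of all genes and 9.39% of those of the genes tested. The window of MCM6 is shown because it holds the motif on both strands at each of a pair of places, with a CCAAT box between and after them. Its 250 bases before the start (GRCh38.p14) follow, 5′ to 3′, with E2F-type and CCAAT matches in capitals. Overlapping matches are written as 1 run.
MCM6, chr2:135876444-135876693, minus strand: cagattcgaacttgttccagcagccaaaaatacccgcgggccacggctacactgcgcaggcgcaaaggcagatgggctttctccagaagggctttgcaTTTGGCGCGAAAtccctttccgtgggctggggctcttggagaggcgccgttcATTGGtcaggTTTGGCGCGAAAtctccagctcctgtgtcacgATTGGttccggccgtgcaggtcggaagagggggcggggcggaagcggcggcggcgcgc

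In S phase, 3 of 5 genes rose (60.0%) and 2 did not pass, with a median log2 fold change of 0.19. None fell with edgeR, DESeq2 or limma-voom (0 also at an unadjusted p under 0.05 in edgeR). Among all genes tested 21.9% rose and 22.3% fell. The S phase median was 0.30 without WT replicate 1 and 0.086 without WT replicate 2. CCNA2 (cyclin A2), which acts in S phase and at entry to mitosis, was at 170.2 and 154 CPM in the libraries labelled KO, against 127 and 113 CPM in the WT libraries (log2 fold change 0.43, SE 0.07, adjusted p = 0.000258). RRM1, the large subunit of ribonucleotide reductase, was at 229 and 228 CPM in the libraries labelled KO, against 192 and 184 CPM in the WT libraries (log2 fold change 0.28, SE 0.05, adjusted p = 0.0004). The genotypes did not overlap in either gene. PCNA, the sliding clamp of the replication fork, was at 159.9 and 162 CPM in the libraries labelled KO, against 151 and 129.97 CPM in the WT libraries (log2 fold change 0.19, adjusted p = 0.0321). Its WT libraries lay apart from each other, and the call was lost in 7 of 15 alternatives (range 0.00559 to 0.36). These included leaving out KO replicate 1, KO replicate 2 or WT replicate 2, the last with a log2 fold change of 0.086. RRM2, the other subunit of ribonucleotide reductase, was at 149 and 148 CPM in the libraries labelled KO, against 143 and 136 CPM in the WT libraries, and did not pass (adjusted p = 0.182). TYMS, thymidylate synthase, overlapped between genotypes.

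Mitotic genes rose most often. Of 26 genes 22 rose (84.6%), none fell and 4 did not pass, against 21.9% risen and 22.3% fallen among all genes tested. Their median log2 fold change was 0.32. The count of 0 for falls was the same with DESeq2 and limma-voom, and at an unadjusted p under 0.05 edgeR gave 1, CDC25B. Both KO libraries lay above both WT libraries for 24 of them. The summed level of the 26 was 4645 and 4538 CPM in the libraries labelled KO, against 3511 and 3450 CPM in the WT libraries. Leaving out the 2 on distal chromosome 1q, 20 of 24 rose, with a median of 0.32 and rises of 1.12-fold to 1.43-fold. The summed level of these 24 was 4044 and 3984 CPM in the libraries labelled KO, against 3307 and 3222 CPM in the WT libraries. Of the 22 calls, 14 held in all 15 alternatives.

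Most listed kinases and cyclins of mitotic entry rose, outside distal 1q by 0.18 to 0.40 on the log2 scale. CCNB1 (cyclin B1) rose by 0.33 on the log2 scale (adjusted p = 0.00012) and PLK1, the Polo kinase, by 0.32 (adjusted p = 0.000174). AURKA, the Aurora kinase of spindle poles, was at 79.4 and 78.1 CPM in the libraries labelled KO, against 59.9 and 59.5 CPM in the WT libraries (log2 fold change 0.40, SE 0.06, adjusted p = 0.000113). TPX2, which activates Aurora A at the spindle, rose by 0.25 (adjusted p = 0.000615). CCNB2 (cyclin B2), CDK1, CDC25C and AURKB, the Aurora kinase of centromeres, rose by 0.18, 0.23, 0.31 and 0.19 on the log2 scale, and each lost its call in 2 to 5 of 15 alternatives, without at least 1 single library among them. KO replicate 2 was such a library for all 4, WT replicate 2 for CCNB2, CDC25C and AURKB, WT replicate 1 for CDK1 and AURKB, and KO replicate 1 for AURKB. Their highest adjusted p-values were 0.212 for CCNB2, 0.818 for CDK1, 0.0854 for CDC25C and 0.115 for AURKB. CDC25B, a phosphatase that activates cyclin B with CDK1, was at 141 and 146 CPM in the libraries labelled KO, against 154 and 159.7 CPM in the WT libraries. It was the mitotic gene with both KO libraries below both WT libraries, and it did not pass (log2 fold change -0.13, adjusted p = 0.0558).

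Genes of chromosome structure and spindle motors followed. TOP2A, topoisomerase II alpha, which untangles sister chromatids, was at 624 and 550.1 CPM in the libraries labelled KO, against 425 and 394 CPM in the WT libraries (log2 fold change 0.52, SE 0.06, adjusted p = 3.13e-05). KIF11, the kinesin that separates spindle poles, was at 130.1 and 122 CPM in the libraries labelled KO, against 93.9 and 86.2 CPM in the WT libraries (log2 fold change 0.49, SE 0.06, adjusted p = 1.66e-05). MKI67, the proliferation marker that coats mitotic chromosomes, had the most counts of the mitotic genes. It was at 735 and 747 CPM in the libraries labelled KO, against 609 and 626 CPM in the WT libraries (log2 fold change 0.26, SE 0.05, adjusted p = 0.000599), so that its level differed 1.20-fold. KIF23, a kinesin of the central spindle, rose by 0.17 (adjusted p = 0.0455), a call lost in 7 of 15 alternatives (range 0.0295 to 0.48), without either KO replicate or WT replicate 2 among them. KIF20A, another kinesin of cytokinesis, overlapped between genotypes, and ANLN (anillin), which organises the contractile ring, rose by 0.31 (adjusted p = 0.00169), a call lost with the GC trend removed (range 4.13e-05 to 0.0819).

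Kinetochore and checkpoint genes were higher as well. BUB1, a checkpoint kinase, was at 121 and 118 CPM in the libraries labelled KO, against 88.8 and 84.8 CPM in the WT libraries (log2 fold change 0.46, SE 0.06, adjusted p = 1.41e-05). BUB1B and TTK, which act in the same checkpoint, rose by 0.27 and 0.35 on the log2 scale. CENPA, the histone of centromeres, rose by 0.33 (adjusted p = 0.00487, lost without WT replicate 1, range 0.00116 to 0.0602), and BIRC5 (survivin), which takes Aurora B to centromeres, by 0.34. CDC20 and UBE2C, an activator and an E2 enzyme of the anaphase-promoting complex, rose by 0.33 and 0.27. A pair of genes whose WT libraries differed from each other did not pass. CENPE, a kinetochore motor, was at 30.7 and 26.9 CPM in the libraries labelled KO, against 15.3 and 26.1 CPM in the WT libraries (adjusted p = 0.325), and passed without WT replicate 2 (adjusted p = 4.15e-05, range 4.15e-05 to 0.678). MAD2L1 (MAD2), a checkpoint protein, was at 61.5 and 51.7 CPM in the libraries labelled KO, against 48.8 and 36.1 CPM in the WT libraries (adjusted p = 0.128), and passed in 3 of 15 alternatives (range 0.000949 to 0.428), without WT replicate 1 among them.

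Promoters of genes expressed in G2 and mitosis are known for CCAAT boxes and for the cell cycle genes homology region (CHR), TTTGAA. On both strands of the 300-base windows, the CHR was in 16 of 29 mitotic windows (55.2%), against 15.2% of all windows and 10.7% of those of the genes tested, and in none of the 11 licensing windows. CCAAT was in 75.9% of mitotic windows, against 34.6% of all. The AP-2-type motif GCCNNNGGC, the kind of sequence TFAP2 proteins bind, was in 26.9% of the windows of the set, against 23.2% of all windows and 30.4% of those of the genes tested. Among mitotic genes with a window, 13 of 14 with a CHR rose (median log2 fold change 0.32), against 4 of 7 without one (median 0.33). With CCAAT 15 of 18 rose, against 2 of 3 without it. In licensing 5 of 7 genes with the E2F-type motif rose, against 1 of 1 without it. Over all genes tested 21.9% rose, and the share among those with each motif was not counted. The part of these motifs in the rises was not tested. The 250 bases before the start (GRCh38.p14, 5′ to 3′, CCAAT and CHR matches on either strand in capitals) are shown for mitotic genes that rose. TOP2A, KIF11 and CCNB2 carry both motifs there, while in CENPF and NEK2, the genes with the largest mitotic rises, only CCAAT is found there, and the CHR of CENPF lies in the 50 bases after the start.
TOP2A, chr17:40417897-40418146, minus strand: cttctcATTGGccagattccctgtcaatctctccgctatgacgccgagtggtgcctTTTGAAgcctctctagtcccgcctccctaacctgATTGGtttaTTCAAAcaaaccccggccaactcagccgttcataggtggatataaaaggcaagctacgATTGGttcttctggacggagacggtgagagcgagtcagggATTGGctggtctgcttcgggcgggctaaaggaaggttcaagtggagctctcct
KIF11, chr10:92592880-92593129, plus strand: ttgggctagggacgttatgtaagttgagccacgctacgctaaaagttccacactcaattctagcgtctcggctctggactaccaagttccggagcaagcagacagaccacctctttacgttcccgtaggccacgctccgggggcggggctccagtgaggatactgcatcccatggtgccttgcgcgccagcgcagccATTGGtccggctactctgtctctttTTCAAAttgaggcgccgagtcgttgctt
CCNB2, chr15:59104896-59105145, plus strand: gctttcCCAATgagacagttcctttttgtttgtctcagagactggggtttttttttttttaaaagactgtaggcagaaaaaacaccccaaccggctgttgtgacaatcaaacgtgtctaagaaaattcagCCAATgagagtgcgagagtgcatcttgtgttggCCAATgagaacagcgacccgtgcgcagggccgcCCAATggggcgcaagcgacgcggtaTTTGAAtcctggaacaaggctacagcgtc
CENPF, chr1:214602945-214603194, plus strand: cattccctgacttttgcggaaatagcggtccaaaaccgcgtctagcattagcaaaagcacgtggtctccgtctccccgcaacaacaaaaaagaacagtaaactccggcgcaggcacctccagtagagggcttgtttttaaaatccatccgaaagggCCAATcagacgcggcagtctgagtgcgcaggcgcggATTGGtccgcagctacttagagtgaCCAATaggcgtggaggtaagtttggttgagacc
NEK2, chr1:211675622-211675871, minus strand: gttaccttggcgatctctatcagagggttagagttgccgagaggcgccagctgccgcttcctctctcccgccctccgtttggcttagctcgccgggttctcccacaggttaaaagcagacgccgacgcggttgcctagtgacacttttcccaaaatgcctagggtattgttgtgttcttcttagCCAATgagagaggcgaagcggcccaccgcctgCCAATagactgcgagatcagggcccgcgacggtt

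CENPF and NEK2 lie on the distal long arm of chromosome 1, from position 196194910 (hg19) on. CENPF (chr1:214776532-214837914), a kinetochore protein of G2 and mitosis, was at 539.7 and 494 CPM in the libraries labelled KO, against 175 and 202 CPM in the WT libraries, 2.74-fold higher (log2 fold change 1.45, SE 0.07, adjusted p = 2.25e-08). NEK2 (chr1:211836114-211848972), a kinase that splits centrosomes before mitosis, was at 60.5 and 59.9 CPM in the libraries labelled KO, against 28.0 and 25.5 CPM in the WT libraries, 2.25-fold higher (log2 fold change 1.17, SE 0.07, adjusted p = 1.10e-08). No other mitotic gene of the set reached 2-fold. Genes of the stretch were mostly higher in the KO libraries. Of its 305 tested genes 207 rose (67.9%), 23 fell and 252 had a positive value, with a median log2 fold change of 0.59, against 18.9% risen and a median of -0.02 among 1273 tested genes on the rest of chromosome 1. Counted from the highest log2 fold change, CENPF ranked 20 and NEK2 34 of the 305. Relative to their own neighbours within 5 Mb, with medians of 0.59 and 0.53, CENPF was 0.86 and NEK2 0.65 log2 units higher. Genotype and a change of the whole stretch cannot be told apart for these genes.

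Another 7 listed cell cycle genes lie there. KIF14, a kinesin of cytokinesis, ranked 23, ASPM, a spindle pole protein, 26, UBE2T, a ubiquitin-conjugating enzyme, 67, LIN9, a subunit of the complex that switches cell cycle genes on and off, 96, DTL, which marks CDT1 for destruction, 111, and MDM4 142, and all 6 rose. BTG2, an antiproliferative gene, ranked 296 of 305. It was at 39.9 and 40.3 CPM in the libraries labelled KO, against 93.2 and 96.7 CPM in the WT libraries (log2 fold change -1.24, SE 0.06, adjusted p = 1.48e-09), and so ran against its stretch.

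**Figure D3:**
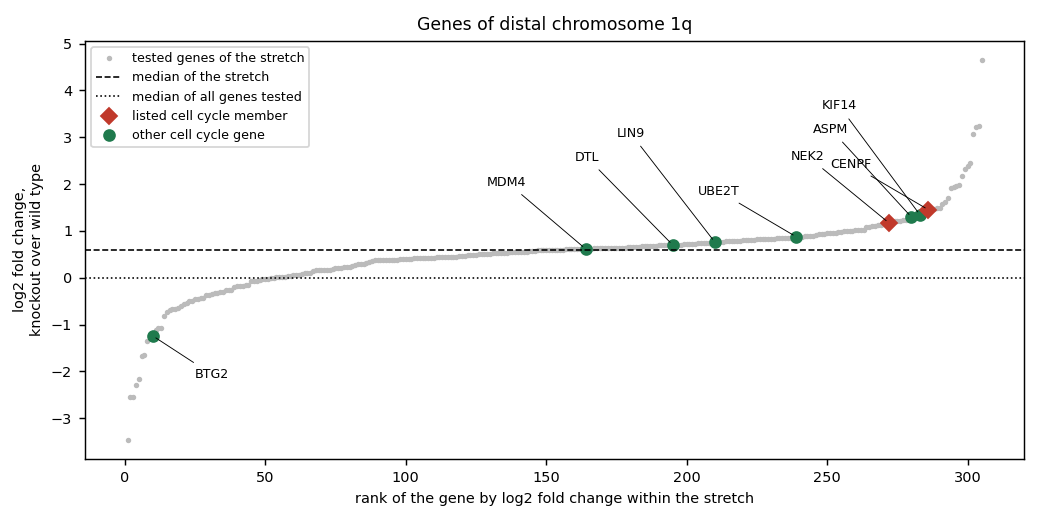
Log2 fold change, KO over WT, of the 305 tested genes of distal chromosome 1q, ordered from the lowest to the highest, with the 2 members as red diamonds and the other listed cell cycle genes as green circles. The median of the stretch is 0.59, CENPF and NEK2 lie above it at 1.45 and 1.17, and BTG2 lies below 0 at -1.24.

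Outside distal 1q, the medians of the genes within 5 Mb of each member lay between -0.17 and 0.30, with a median of -0.02. Of the 36 members that rose there, E2F3 and MCM4 rose by no more than the median of their neighbours. The others were picked for having risen, so that they rose by more than their neighbours is not a separate result. For 8 of the 36 the neighbours' median was at least 0.1, namely RB1, E2F3, GMNN, MCM4, MCM6, MKI67, KIF11 and BUB1.

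Fold changes moved with base composition over all genes. Among tested genes with a GC content of the longest annotated transcript below 47.6%, the median of the set, 29.1% rose, against 16.3% of those at or above it. Of the members below that value 22 of 28 rose (median log2 fold change 0.32), against 16 of 29 at or above it (median 0.18). Across the 57 members the correlation of log2 fold change with GC content was r = -0.27 (-0.21 over 55 without the distal 1q pair), and across 15105 tested genes it was -0.13. Genes share libraries and are not independent replicates. With the trend on GC content removed, 32 members rose and 3 fell, with a median of 0.21. Over all 15643 genes tested, 2865 then rose and 3696 fell, with a median of -0.03, against 0.00 in the main fit. The phases differ in GC content, with medians of 43.8% for mitosis, 45.3% for S phase, 51.2% for licensing and 51.6% for G1. The part of GC content in the differences between phases and in the remaining differences was not tested.

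**Figure D4:**
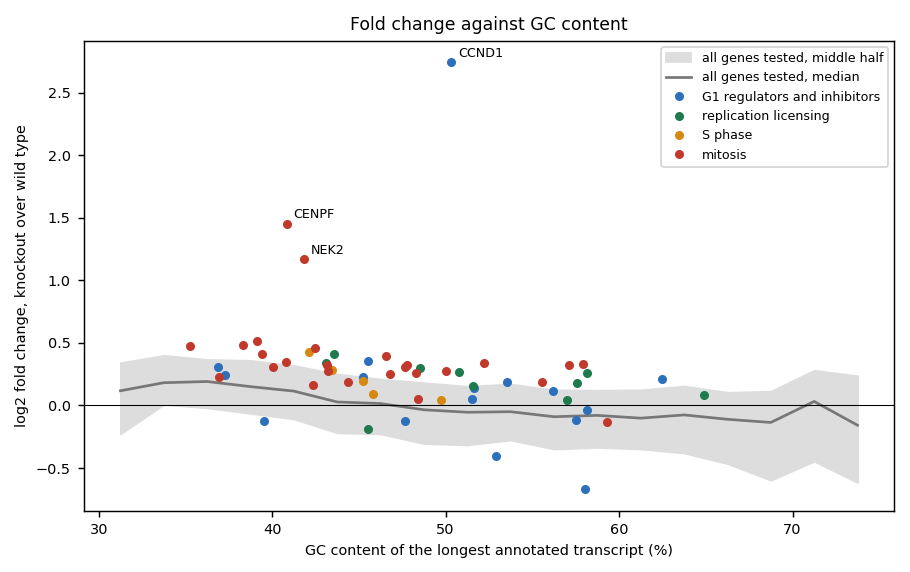
Log2 fold change, KO over WT, against GC content of the longest annotated transcript in percent, with the 57 members coloured by phase over the median (line) and quartiles (band) of all genes tested. The line lies above 0 at low and mostly below 0 at high GC content, and most members lie above it.

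Other cell cycle genes were read from 6 lists of 153 genes, of which 152 were tested. Of these 71 rose (46.7%), 8 fell (5.26%) and 73 did not pass, with a median log2 fold change of 0.18, against 21.9% risen, 22.3% fallen and a median of 0.00 over all genes tested. Without WT replicate 1 only 4 fell. In the list of mitotic spindle, kinetochore and cytokinesis genes 29 of 43 rose (median 0.31) and 1 fell, CENPW, which did not pass once WT replicate 1 was left out (adjusted p 0.000197 to 0.0538 over 15 alternatives). In the others the medians were lower, with 9 of 21 genes of G1/S control, 15 of 39 of replication initiation and fork, 4 of 11 of nucleotide and chromatin supply, 6 of 18 of mitotic entry and exit and 8 of 20 checkpoint and stress response genes risen, shares of 33.3% to 42.9% against the same 21.9%.

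Among G1/S genes, MYCN, a transcription factor that drives proliferation, was at 136 and 145 CPM in the libraries labelled KO, against 87.1 and 83.1 CPM in the WT libraries (log2 fold change 0.73, SE 0.06, adjusted p = 1.62e-07). E2F8, a repressing E2F, was at 17.7 and 15.9 CPM in the libraries labelled KO, against 9.67 and 8.51 CPM in the WT libraries (log2 fold change 0.89, SE 0.13, adjusted p = 5.16e-05). LIN9, on distal 1q, rose by 0.76. CDKN1C (p57), a CDK inhibitor, was at 130.3 and 147 CPM in the libraries labelled KO, against 107 and 109 CPM in the WT libraries (log2 fold change 0.36, SE 0.06, adjusted p = 0.000308), and rose in all 15 alternatives as well. CDKN2B (p15), a CDK4 and CDK6 inhibitor, was low and fell. It was at 1.49 and 1.28 CPM in the libraries labelled KO, against 2.80 and 2.32 CPM in the WT libraries (log2 fold change -0.89, adjusted p = 0.0135), a call lost with DESeq2, without KO replicate 2 and without WT replicate 1 (range 0.00822 to 0.142). CDKN2D (p19), another CDK4 and CDK6 inhibitor, did not pass (adjusted p = 0.635). CKS1B, a CDK subunit, overlapped between genotypes, with WT replicate 1 at 34.2 CPM and the other libraries at 11.7 to 15.6 CPM.

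Among replication genes, GINS4, a subunit of the replicative helicase complex, was at 124 and 122 CPM in the libraries labelled KO, against 67.2 and 71.1 CPM in the WT libraries (log2 fold change 0.83, SE 0.06, adjusted p = 3.88e-08). CDC7, the kinase that fires origins, was at 51.4 and 47.5 CPM in the libraries labelled KO, against 33.2 and 32.5 CPM in the WT libraries (log2 fold change 0.59, SE 0.07, adjusted p = 1.33e-05). DTL, on distal 1q, rose by 0.70. MCM9, a helicase of DNA repair, ran the other way, at 15.7 and 13.0 CPM in the libraries labelled KO, against 23.4 and 21.3 CPM in the WT libraries (log2 fold change -0.64, SE 0.11, adjusted p = 0.000368), and POLE, the leading-strand polymerase, fell by 0.15 on the log2 scale (adjusted p = 0.0295, lost in 7 of 15 alternatives, without KO replicate 2, WT replicate 1 or WT replicate 2 among them, range 0.0288 to 0.179). Of the nucleotide and chromatin supply genes, DTYMK, NASP, UHRF1 and CHAF1B rose by 0.32, 0.23, 0.25 and 0.22. UHRF1 lost its call with DESeq2 and without KO replicate 1 or WT replicate 2 (range 0.00382 to 0.26), and CHAF1B in 7 of 15 alternatives, without KO replicate 2, WT replicate 1 or WT replicate 2 among them (range 0.0313 to 0.281).

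Among spindle genes, KIF14 was at 52.8 and 48.9 CPM in the libraries labelled KO, against 17.8 and 22.2 CPM in the WT libraries (log2 fold change 1.35, SE 0.10, adjusted p = 1.27e-07). ASPM was at 133 and 121 CPM in the libraries labelled KO, against 43.8 and 59.8 CPM in the WT libraries (log2 fold change 1.30, SE 0.17, adjusted p = 0.00638), a call lost without KO replicate 1 (adjusted p = 0.0821) or KO replicate 2 (adjusted p = 0.0586, range 7.15e-10 to 0.0821). Both are on distal 1q, while KIF18A and HMMR, a kinesin and a spindle protein that are not, rose by 0.77 and 0.75. UBE2T was placed under mitotic entry and exit when the lists were drawn up, and a role of it there was not tested. Of the entry and exit genes, UBE2T (distal 1q), CDC27, a subunit of the anaphase-promoting complex, PTTG1 (securin) and BORA, an activator of Aurora A, rose by 0.87, 0.41, 0.40 and 0.31, BORA losing its call in 5 of 15 alternatives, without WT replicate 1 or 2 among them (range 0.00666 to 0.183). PKMYT1, a kinase that inhibits CDK1, fell by 0.30 on the log2 scale (adjusted p = 0.00434, lost without WT replicate 1, range 0.000505 to 0.0816).

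Checkpoint and stress response genes went both ways. Beside CDKN1A and BTG2, GADD45A, a stress-induced inhibitor of growth, was at 13.6 and 11.8 CPM in the libraries labelled KO, against 24.6 and 26.3 CPM in the WT libraries (log2 fold change -1.004, SE 0.11, adjusted p = 3.29e-06), and SESN1 fell by 0.64 on the log2 scale. BBC3 (PUMA), which promotes cell death, was at 20.2 and 19.2 CPM in the libraries labelled KO, against 13.0 and 11.7 CPM in the WT libraries (log2 fold change 0.67, SE 0.11, adjusted p = 0.000189), and PLK3, a stress-responsive kinase, at under 5 CPM in every library, rose by 0.79 (adjusted p = 0.00778, lost with DESeq2 and without WT replicate 2, range 0.00373 to 0.0957). FAS did not pass the low-count filter.

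**Figure D5:**
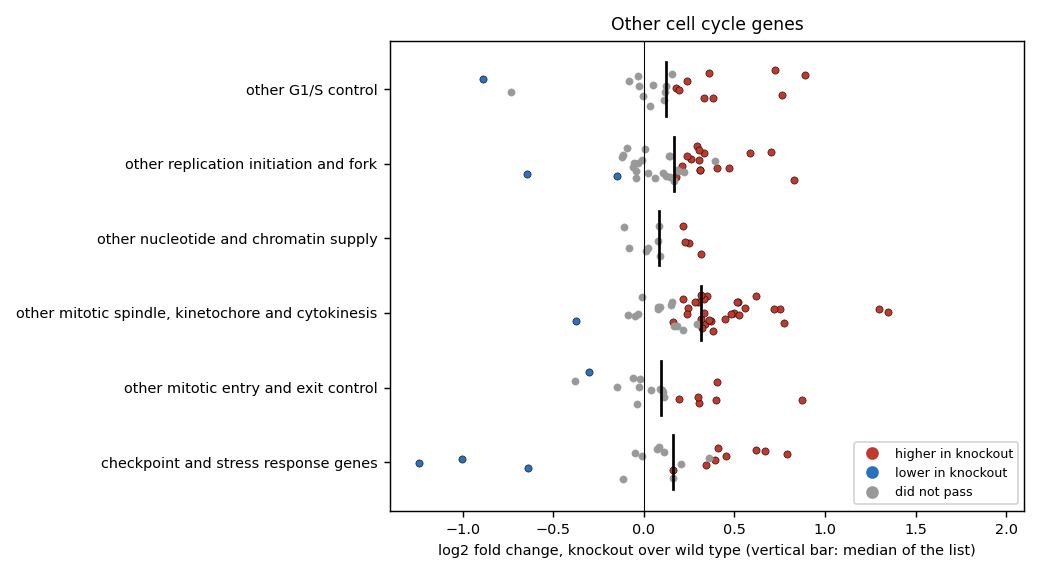
Log2 fold change, KO over WT, of 152 other cell cycle genes in 6 lists, each point a gene and each vertical bar the median of a list. The spindle list has the highest median, 0.31, and the largest falls, BTG2 and GADD45A, are in the list of checkpoint and stress response genes.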

How the data were processed

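PolyA-enriched RNA was sequenced from 4 libraries, 2 labelled TFAP2A knockout and 2 WT, grouped by the genotype label. The authors deposited 1 table of estimated counts for each gene. TopHat, HOMER, DESeq2 and the build hg38 are named in the submitters' processing notes. Versions, counting settings and whether strand was used were not given in the sources used here, and reads of overlapping antisense genes cannot be told apart. All values were multiples of 0.5 (37.0% not whole) and were rounded to whole numbers. Only 4.32% of 23020 genes matched to a GRCh38 annotation began within 2000 bp of their place there, and contigs of 42 rows carried hg19 names, so table positions are printed as hg19.

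Genes were filtered with filterByExpr, scaled with TMM factors and tested with edgeR 4.0.16 (glmQLFit, robust, and glmQLFTest) in R 4.3.3 on genotype alone, with 2 residual degrees of freedom and a common biological coefficient of variation of 0.0577. DESeq2 1.42.0 and voom of limma 3.58.1 were alternatives. The fit was tested on simulated counts with known fold changes. Replicates differed by more than sampling noise (chi-square per degree of freedom 4.16 in KO and 4.31 in WT). Floors cover counting error only, since PCR duplicates cannot be told from separate molecules.

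The members and all gene lists were chosen with earlier results of these data known. Values per library are given for the D and E cyclins, the CDK inhibitors, the members on distal 1q, the member below the filter, up to 6 called members of each phase with the largest change and the 2 with the highest mean CPM, and up to 4 called genes with the largest change in each other list, of which some are given as fold changes alone. CDK6, CDC6, ORC1, CDC25B, CENPE, MAD2L1, RRM2, CDKN1C, CDKN2D, CKS1B and other genes named outside this rule were chosen after their values were seen. Of the 153 other cell cycle genes, 3 were matched by an older symbol. Transcript lengths and GC content came from the longest transcript of each gene in a GRCh38 annotation and covered 96.6% of the genes tested. Promoter windows were credited to RefSeq on GRCh38.p14.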

Additional observations from a re-analysis of the deposited data

How the results depend on the processing

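Over 15 alternatives, 23 of the 40 member calls held throughout, and 46 members kept a positive log2 fold change in every fit. Members that rose numbered 30 with DESeq2, 36 with the replicate block, 32 with the GC trend removed and 36 with distal 1q genes left out, which was chosen after seeing the data. Over all 15643 genes tested, 3427 rose in the main fit, 2386 with DESeq2, 3050 with the replicate block and 2865 with the GC trend removed. Falls over all genes numbered 3492, 2543, 3154 and 3696 in the same order. Members that fell numbered 1 with DESeq2, all of it in G1. In licensing 1 gene fell with no low-count filter, with the GC trend removed, and with the GC trend removed and the replicate block. With the GC trend removed the median log2 fold change was 0.21 for members and 0.25 for mitosis, and with the replicate block as well it was 0.21 and 0.27. Over all genes tested the median was -0.03 in both settings. Nothing in the labels pairs libraries by replicate number, and the deviations of same-numbered libraries had a correlation of -0.05. With the replicate block, 2 members fell, as without it, E2F1, PCNA and KIF23 did not pass, MAD2L1 did, and TTK did not pass with the GC trend removed and the block together.

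Leaving out each library in turn gave 28 to 34 members risen and 1 to 3 fallen. In G1 it gave 3 to 5 risen and 1 to 2 fallen, in licensing 4 to 7 risen and 0 to 1 fallen, in S phase 2 to 3 risen, and in mitosis 17 to 20 risen. Of the other cell cycle genes 51 to 70 rose and 4 to 10 fell. Medians ran from 0.23 to 0.25 for members, 0.070 to 0.18 for G1, 0.17 to 0.26 for licensing, 0.086 to 0.30 for S phase and 0.27 to 0.34 for mitosis. These fits test fewer libraries, and the lone library of a genotype is assumed to vary like the other genotype's. The cause of the other shifts was not tested.

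Of the 51 tested genes picked by the rule for values per library, 2 that did not pass changed sign. Over all 57 tested members, 49 were positive in the main fit and 46 in every fit, so other members changed sign too. The log2 fold change of CCND3 ran from -0.0019 without KO replicate 2 to 0.22 without KO replicate 1. The log2 fold change of CDKN2C was 0.011 with limma-voom, 0.014 with the GC trend removed and 0.014 with the replicate block as well, and ran from -0.39 without WT replicate 1 to 0.43 without WT replicate 2. Over these 51 genes and these settings, 43 calls were lost and 716 results held direction and call. Most of the 51 were picked for a large change, so these counts do not give the stability of every gene named here. Of all 40 member calls, 23 held throughout. With 2 libraries a genotype, genes that did not pass may still differ.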
